A study of Mus musculus with 2 samples.

Results

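Transcripts of the axon guidance families were measured in 2 cell populations sorted as cells of the growing mouse hair follicle. The names of the populations are those of the sort, and markers of other cell types are given below. The genes were those whose symbol marked them as a semaphorin of class 3 to 7, a plexin, a neuropilin, an ephrin or Eph receptor, a Slit, a Robo, a netrin or an Unc5. They were 70 of the 18193 genes that the array's probe sets named alone, and they had 153 probe sets. The early bulge sample held follicle cells of CD-1 pups at postnatal day 4, sorted as bright for Sox9-EGFP, a green reporter for a transcription factor of follicle stem cells, and bright for K14-RFP, a red reporter driven by the promoter of keratin 14, a gene of basal keratinocytes. The second sample, of outer root sheath (ORS) cells from outside the bulge, came from pups of the same strain, age and transgenes, and held cells with bright RFP and no EGFP. The bulge is the follicle region that houses its stem cells, and the ORS is the layer that wraps it on the outside. With 1 array per population, no ratio could be checked in a replicate and no test between the populations was possible. How many pups each array stands for was not stated in the labels.

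Guidance molecules were first known for steering growth cones, and the same proteins act on adhesion, migration and sorting of epithelial, vascular and immune cells. Semaphorins signal through plexins, and most secreted class 3 semaphorins bind a neuropilin as co-receptor. Ephrins are bound to the membrane, type A by a lipid anchor and type B by a transmembrane segment, and they and the Eph receptor kinases signal in both directions when cells touch. Slits are secreted ligands of Robo receptors, and netrins bind Dcc, neogenin and the Unc5 receptors. In skin, ephrin-A1 and EphA2 act in keratinocytes, and guidance cues also reach the sensory endings that surround the follicle.

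Values are MAS5 signals, a linear brightness per probe set that the authors scaled so that the 2% trimmed mean was 500.0 on both arrays. Signals of different probe sets cannot be set against each other, so each statement compares the same probe set between the arrays. Sums over a list compare the same probe sets between the arrays and are weighted towards the brightest of them. Where a gene had several probe sets, the one with the highest log2 signal averaged over the arrays represented it. Signals under 57.8, the 40th percentile of all signals, were set to that floor, and a gene counted as measured when at least 1 array reached it. Ratios with 1 array below the floor are lower bounds. The spread that could be had is technical. The log2 ratios of different probe sets of a gene differed with an SD of 0.51 over 15292 pairs, which corresponds to 0.36 for 1 probe set. In RNA from a whole sorted population, fewer cells of a type and less RNA per cell cannot be told apart. The gate was visible in the data, as Sox9 gave 4061 in the early bulge sample and 676 in the ORS sample. The 3 measured Sox9 probe sets ran from 0.30 to 2.59 on the log2 scale. Krt14 gave 14706 in the early bulge sample and 6609 in the ORS sample, although both gates were bright for its reporter.

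Of the 70 genes, 57 were measured, 6 of them with 1 array below the floor. They included Unc50, a membrane protein of the Golgi with 5052 in the early bulge sample and 4663 in the ORS sample, and Unc5cl, a cytoplasmic relative of the Unc5 receptors. Those 2 and the antisense transcript Plxna4os1, which was below the floor on both arrays, carry matching names but are neither guidance ligands nor receptors. That left 55 measured genes of 67, of which 30 were ligands and 25 receptors. Among the 57, 10 were at least 2-fold higher in the early bulge sample, 6 were at least 2-fold higher in the ORS sample and 41 were less than 2-fold apart. Across all 13252 measured genes 7.30% were at least 2-fold higher in the early bulge sample and 4.78% in the ORS sample, together 12.1%. The guidance genes gave 17.5% and 10.5% for the same directions. At 4-fold, 4 guidance genes (7.02%) were higher in the early bulge sample and 3 (5.26%) in the ORS sample, against 1.87% and 1.32% of all measured genes. The median log2 ratio of the guidance genes was 0.21, and that of all measured genes was 0.04.

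**Figure D1:**
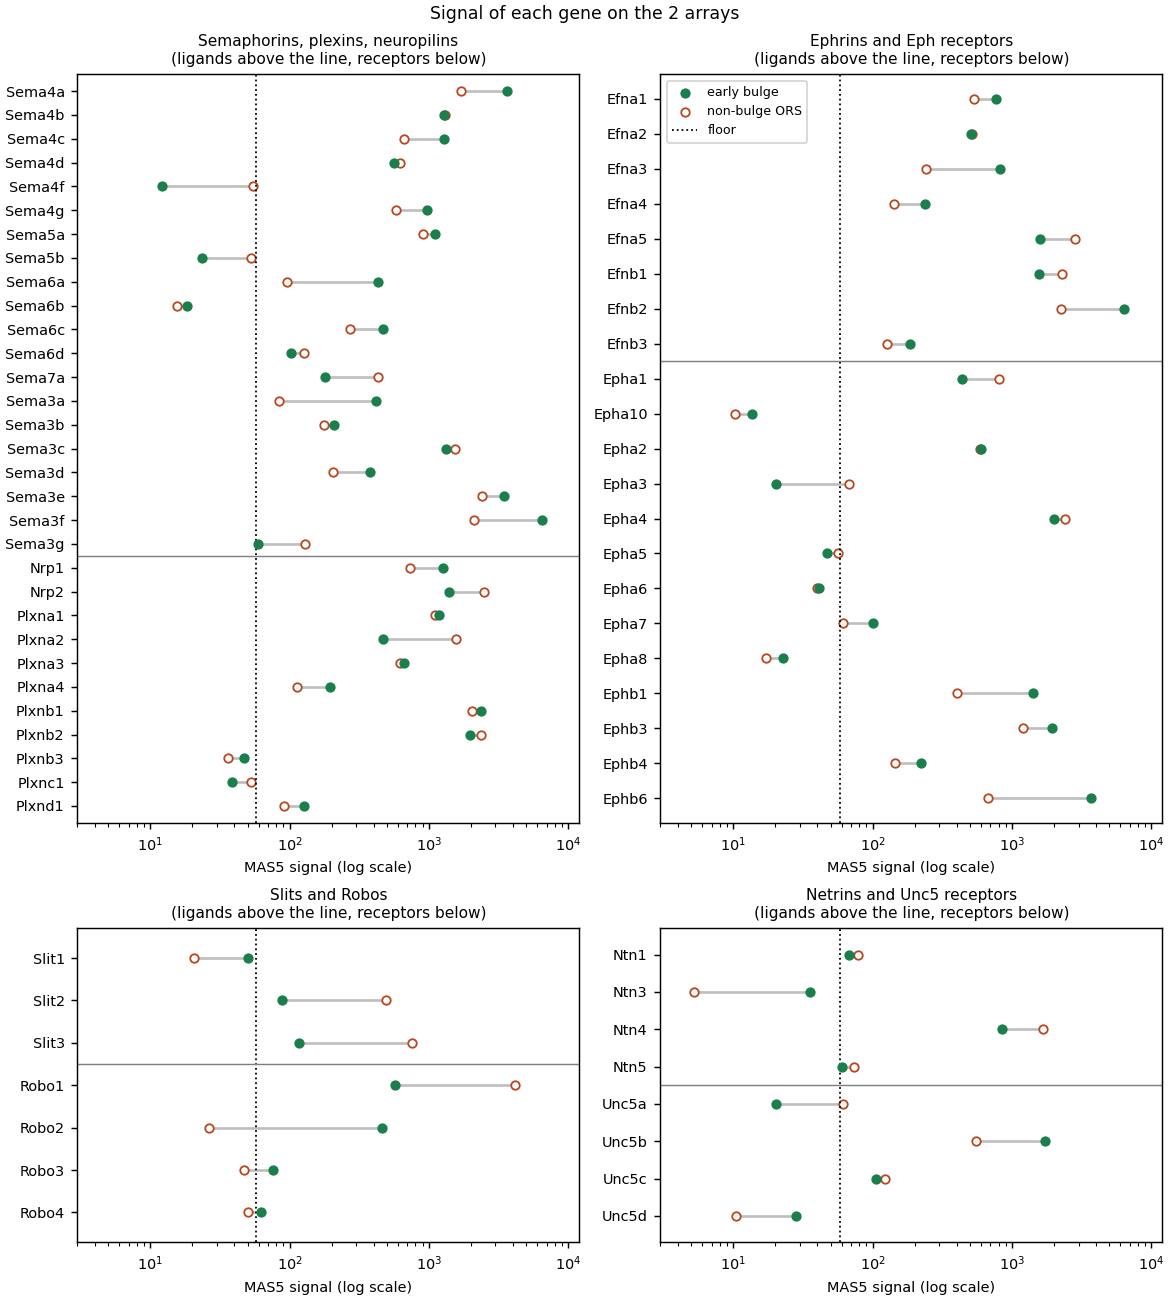
MAS5 signal (log axis) of each of the 67 ligands and receptors in the early bulge sample (filled) and the ORS array (open), in 4 panels by system, with ligands above the line and receptors below it. The dotted line is the floor of 57.8. The widest gaps above the floor are those of Robo1, Slit3, Slit2 and Ephb6, the last with its early bulge signal to the right.

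Genes 2-fold apart were found on both the ligand and the receptor side. Of 30 ligands, 6 were at least 2-fold higher in the early bulge sample and 4 in the ORS sample, with a median log2 ratio of 0.26. Of 25 receptors, 4 were at least 2-fold higher in the early bulge sample and 2 in the ORS sample, with a median of 0.10. By system, all 4 ephrin and Eph genes that were 2-fold apart were higher in the early bulge sample (after median centring of the arrays, Efna5 and Epha1 also passed 2-fold, towards ORS), whereas 3 of the 4 Slit and Robo genes 2-fold apart were higher in the ORS sample. After median centring the median log2 ratio of all measured genes fell by 0.21. This gave 9 guidance genes at least 2-fold higher in the early bulge sample and 10 in the ORS sample, so that the early bulge share of the 2-fold guidance genes was 47.4% in place of 62.5%. The share of all 2-fold genes that were higher in the early bulge sample moved too, to 40.9% in place of 60.4%, with 5.34% of measured genes higher in the early bulge sample and 7.71% in the ORS sample.

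**Figure D2:**
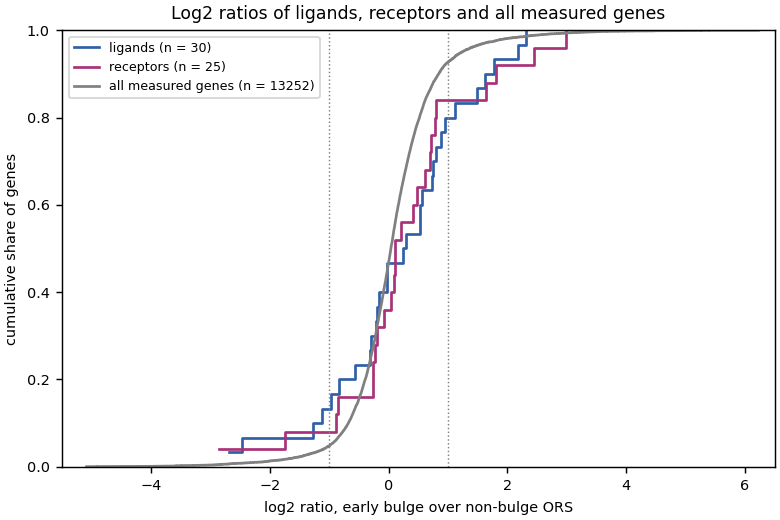
Cumulative share of genes (vertical axis) by log2 ratio of early bulge over ORS signal, for 30 ligands, 25 receptors and all 13252 measured genes. Dotted lines mark 2-fold. The ligand and receptor curves lie below the curve of all genes at a log2 ratio of 1 and above it at -1, so a larger share of them is 2-fold apart in either direction.

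The promoters of 4 genes are shown because they make up 2 pairs of a ligand and a receptor of the same system that were 2-fold apart in the same direction: Efnb2 and Ephb1, both higher in the early bulge sample, and Slit2 and Robo1, both higher in the ORS sample. They were picked after their values were seen. Each window runs 5′ to 3′ in the direction of transcription, with 250 bases before and 50 after the start, as given by RefSeq on GRCm38.p6. The windows are Efnb2 at chr8:8661193-8661492, minus strand, Ephb1 at chr9:102354644-102354943, minus strand, Slit2 at chr5:47982905-47983204, plus strand and Robo1 at chr16:72662899-72663198, plus strand. Capitals mark matches on either strand to 5 motifs, which are the GC box (GGGCGG), the CCAAT box (CCAAT), the TATA box (TATAAA), a Sox core (AACAAT) and a Lef and Tcf core (CTTTGA).
Efnb2: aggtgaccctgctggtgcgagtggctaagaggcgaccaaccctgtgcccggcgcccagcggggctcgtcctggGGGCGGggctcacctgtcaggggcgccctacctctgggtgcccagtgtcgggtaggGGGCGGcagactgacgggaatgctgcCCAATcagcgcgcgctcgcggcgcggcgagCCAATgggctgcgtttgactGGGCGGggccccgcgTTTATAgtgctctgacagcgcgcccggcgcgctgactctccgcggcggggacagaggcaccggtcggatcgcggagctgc
Ephb1: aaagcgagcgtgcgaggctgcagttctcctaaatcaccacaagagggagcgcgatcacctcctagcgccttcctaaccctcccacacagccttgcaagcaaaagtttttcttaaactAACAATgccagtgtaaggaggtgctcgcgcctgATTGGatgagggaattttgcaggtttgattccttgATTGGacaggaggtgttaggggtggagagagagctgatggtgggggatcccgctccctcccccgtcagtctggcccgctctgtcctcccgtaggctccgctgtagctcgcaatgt
Slit2: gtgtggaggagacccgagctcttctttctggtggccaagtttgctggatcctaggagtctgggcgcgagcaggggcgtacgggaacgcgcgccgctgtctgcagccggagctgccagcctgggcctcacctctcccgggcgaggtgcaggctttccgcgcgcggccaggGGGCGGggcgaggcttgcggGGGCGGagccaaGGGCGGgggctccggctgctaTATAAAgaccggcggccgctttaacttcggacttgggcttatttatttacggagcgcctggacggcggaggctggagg
Robo1: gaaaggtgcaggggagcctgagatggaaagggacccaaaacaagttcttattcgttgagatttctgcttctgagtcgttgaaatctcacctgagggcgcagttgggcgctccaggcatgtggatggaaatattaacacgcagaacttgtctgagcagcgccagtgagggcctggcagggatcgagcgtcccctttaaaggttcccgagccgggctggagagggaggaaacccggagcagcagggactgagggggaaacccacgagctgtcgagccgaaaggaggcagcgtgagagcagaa

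The Efnb2 window was 72.3% G and C, with 3 GC boxes, 2 CCAAT boxes and 1 TATA match on the reverse strand. Slit2 was 68.0% G and C, with 3 GC boxes and 1 TATA match. The Ephb1 window was 55.7% G and C and held 2 CCAAT matches and 1 Sox core, and the Robo1 window, at 57.0%, held none of the 5 motifs. Over all 32851 windows of this length the median was 52.7% G and C. Of these windows 35.7% held a GC box, 37.4% a CCAAT box, 13.6% a TATA match, 10.7% the Sox core and 16.0% the Lef and Tcf core. No 2 motifs overlapped in these 4 windows. A match is a run of letters, and nothing was measured here on binding.

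Of 17 measured ephrins and Eph receptors, 13 were less than 2-fold apart, and the 4 others, which were 2 ephrins and 2 B class receptors, were higher in the early bulge sample. The ligand Efnb2, a transmembrane ephrin known from arteries and epithelia, gave 6316 in the early bulge sample and 2249 in the ORS sample, 2.81-fold higher in the early bulge sample. A second bright probe set of Efnb2 gave 3939 in the early bulge sample and 1048 in the ORS sample. The other pair of Efnb2 probe sets was near the floor, with bounds of 0.13 and 0.30 on the log2 scale. Efna3, a lipid-anchored ephrin, gave 822 in the early bulge sample and 241 in the ORS sample (3.41-fold), and its other probe set gave a larger log2 ratio of 2.77. Both of these ligands were thus apart on more than 1 probe set.

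The remaining ephrins were less than 2-fold apart and went both ways. Efna5 gave 1580.3 in the early bulge sample and 2829.9 in the ORS sample (log2 ratio -0.84). Efnb1, whose gene is mutated in human craniofrontonasal syndrome, gave 1551 in the early bulge sample and 2298 in the ORS sample (-0.57, and between -0.65 and -0.25 over 3 probe sets). Efna1 gave 769 in the early bulge sample and 536 in the ORS sample (0.52). Efnb3 gave 186 in the early bulge sample and 126 in the ORS sample (0.56), and Efna4 (0.73) had the same direction. Efna2 gave 508 in the early bulge sample and 519 in the ORS sample, with probe sets of both signs (-0.03 and 0.11). Of the 8 ephrins, all measured, 2 were 2-fold apart, and their median log2 ratio was 0.54.

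All 4 Eph B receptors with probe sets used here had the higher signal in the early bulge sample. Ephb6, a family member that lacks kinase activity, gave 3690.4 in the early bulge sample and 674 in the ORS sample, 5.48-fold higher in the early bulge sample. Ephb1 gave 1416 in the early bulge sample and 405 in the ORS sample (3.49-fold). Ephb3 gave 1937 in the early bulge sample and 1201 in the ORS sample (log2 ratio 0.69), and Ephb4, the partner of Efnb2 in veins, gave 222 in the early bulge sample and 146 in the ORS sample (0.61). Each of the 4 had 1 probe set among those used here, so none of these ratios had a second measurement. Their median log2 ratio was 1.25.

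Of the 9 A receptors, 5 were measured and none was 2-fold apart (Epha1 was after median centring), with a median log2 ratio of -0.23. Epha4, which binds ephrins of both classes, gave 1986 in the early bulge sample and 2391 in the ORS sample, and its 5 probe sets ran from -0.27 to 0.19. Epha2 gave 599 in the early bulge sample and 586 in the ORS sample. Epha1 gave 436 in the early bulge sample and 809 in the ORS sample (-0.89, and -0.70 on its other probe set). Epha7 was dim (log2 ratio 0.71), Epha3 was just above the floor in the ORS sample alone, and Epha5, Epha6, Epha8 and Epha10 were below the floor on both arrays. On their representative probe sets Epha1, Epha2, Epha4 and the dim Epha7 were thus above the floor in both samples, as were all 5 ephrin-A ligands. For Epha7 this rests on 1 of 4 probe sets, with 100.4 in the early bulge sample and 61.5 in the ORS sample. Its other probe sets were below the floor on both arrays.

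Slits and Robos held 4 of the 5 largest ratios among representative probe sets of the guidance genes, together with Ephb6. The receptor Robo1 gave 567 in the early bulge sample and 4139 in the ORS sample, 7.30-fold higher in the ORS sample. Its second probe set gave 131 in the early bulge sample and 578 in the ORS sample (log2 ratio -2.15), and the third, with early bulge below the floor, gave a bound of -0.68. Its paralog Robo2 went the other way, with 459.9 in the early bulge sample and 26.5 in the ORS sample. That is at least 7.96-fold higher in the early bulge sample, on the only Robo2 probe set. Robo3 gave 76.4 in the early bulge sample and 47.3 in the ORS sample. Robo4, known from endothelium, gave 62.0 in the early bulge sample and 50.1 in the ORS sample, so both were too dim in the ORS sample to give more than a bound.

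Both measured Slits were higher in the ORS sample. Slit3 gave 117 in the early bulge sample and 755 in the ORS sample, 6.43-fold higher in the ORS sample, on its only probe set. Slit2 gave 87.9 in the early bulge sample and 489 in the ORS sample (5.57-fold). Another Slit2 probe set was below the floor in the early bulge sample and close to it in the ORS sample, with a bound of -0.32, and the mean over Slit2 probe sets gave a log2 ratio of -0.93, under 2-fold. Slit1, a form known mainly from the nervous system, was below the floor on both arrays (50.3 in the early bulge sample and 20.6 in the ORS sample).

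Cell type markers also differed between the arrays, and their part in the Slit and Robo differences was not tested. The marker lists were chosen with earlier results of these data known. Of all measured genes, 7.30% were at least 2-fold higher in the early bulge sample and 4.78% in the ORS sample. Of 12 dermal fibroblast markers, 11 were at least 2-fold higher in the ORS sample, with a median log2 ratio of -3.58. The signals of this list summed to 6289 in the early bulge sample and 59910 in the ORS sample. Col1a2, a collagen chain of fibroblasts, gave 1079 in the early bulge sample and 14484 in the ORS sample. Hair matrix markers were also lower in the early bulge sample, with 4 of 6 at least 2-fold apart (median -2.17, sums of 1526 in the early bulge sample and 6641 in the ORS sample). Pericyte and smooth muscle markers had 4 of 9 at least 2-fold higher in the ORS sample (median -0.68, sums of 3719 in the early bulge sample and 18615 in the ORS sample). Acta2 alone gave 1299 of the early bulge sum and 11143 of the ORS sum. All 7 basal keratinocyte markers had the higher signal in the early bulge sample, 3 of them by at least 2-fold (median 0.81, sums of 93382 in the early bulge sample and 50959 in the ORS sample). Towards early bulge, all 6 upper follicle markers (sums of 38322 in the early bulge sample and 4951 in the ORS sample) and all 6 sebocyte markers (sums of 22220.1 in the early bulge sample and 4720.5 in the ORS sample) were at least 2-fold higher.

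Of the markers of neurons and of endothelium, most were represented by probe sets below the floor on both arrays. Among 6 neuronal markers, Tubb3, Nefl and Snap25 were below the floor on both arrays. Stmn2 was below it on the probe set that represents it (48.4 in the early bulge sample and 56.1 in the ORS sample), and another of its probe sets gave a log2 ratio of -0.33. The other 2, Prph and Elavl3, were above the floor in the early bulge sample alone, with 108.3 and 67.2 there and 43.0 and 21.6 in the ORS sample, and their bounds on the log2 scale were 0.91 and 0.22. Of 10 endothelial markers, 6 were below the floor on both arrays, among them Pecam1, Cdh5 and Plvap, which define that cell type. Tek, a receptor of endothelium, gave a 4.09-fold higher signal in the ORS sample, with 69.98 in the early bulge sample and 286 in the ORS sample. The other measured endothelial markers were less than 2-fold apart. Esam gave 120 in the early bulge sample and 69.9 in the ORS sample (log2 ratio 0.78). Cldn5 had a log2 ratio of -0.63 and Kdr a bound of -0.41. Of the 5 Schwann cell markers with a probe set, 3 were measured, all with the higher signal in the early bulge sample, and 1, Mbp, was 2-fold apart (median log2 ratio 0.81, sums of 588 in the early bulge sample and 349 in the ORS sample). Of 7 dermal papilla markers 6 were measured, and 2 were at least 2-fold higher in the ORS sample. Among 8 melanocyte markers 1 was at least 2-fold higher in the early bulge sample and 2 in the ORS sample. Of 5 Merkel cell markers 3 were measured, and 1 was at least 2-fold higher in the ORS sample. Of 10 immune markers 5 were measured, and none was 2-fold apart. Sox2 of the papilla list, Atoh1 and Krt20 of the Merkel list, and Ptprc, Cd3e, H2-Aa, Cd207 and Tyrobp were below the floor on both arrays.

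**Figure D3:**
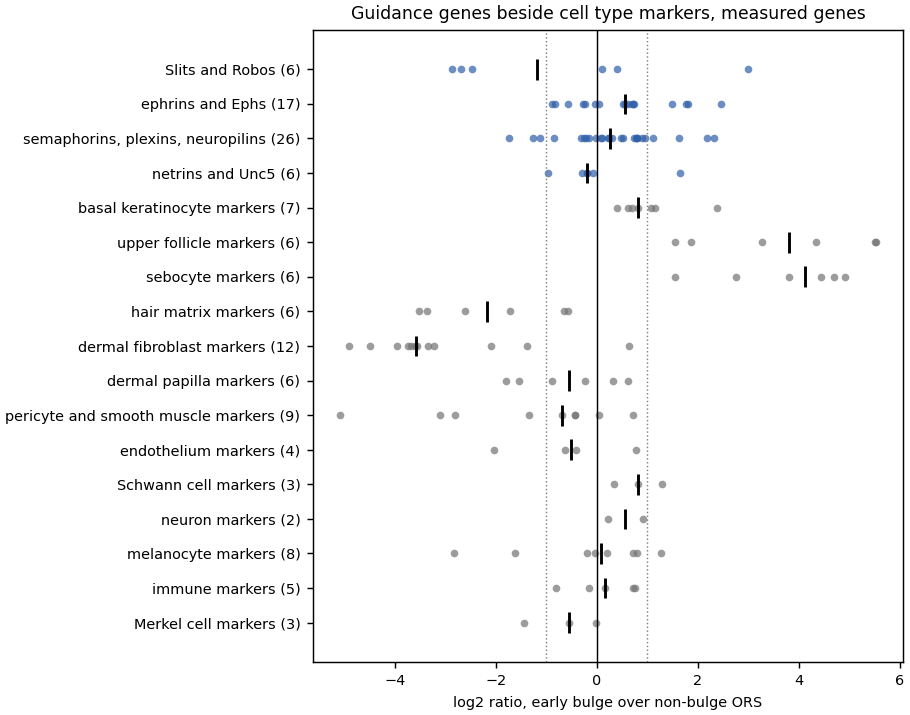
Log2 ratio of early bulge over ORS signal for measured guidance genes by system (blue) and for markers of cell types (grey), with the number of measured genes in brackets, a black bar at each median and dotted lines at 2-fold. Robo1, Slit2 and Slit3 lie to the left, as do 11 of 12 dermal fibroblast markers, while Robo2 and the upper follicle and sebocyte markers lie to the right.

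Semaphorins were the largest family and were divided between the arrays. Of 20 semaphorins 17 were measured, 4 were at least 2-fold higher in the early bulge sample and 2 in the ORS sample, with a median log2 ratio of 0.52. Sema3a, the founding axon repellent of the secreted class, gave 418 in the early bulge sample and 84.0 in the ORS sample, 4.98-fold higher in the early bulge sample. Its other measured probe set was near the floor, with a bound of 0.25, and the mean over probe sets was 0.85 on the log2 scale. Sema3f, a secreted ligand that binds Nrp2, gave 6507 in the early bulge sample and 2107 in the ORS sample (3.09-fold). That probe set can hybridise with other transcripts by its design class, and the others of Sema3f gave log2 ratios of 0.30 and 0.19, so the size of the Sema3f difference rests on 1 ambiguous probe set.

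The other secreted semaphorins were closer on the arrays. Sema3e, the ligand of Plxnd1, gave 3469 in the early bulge sample and 2421 in the ORS sample, with all 4 probe sets between 0.52 and 1.18 on the log2 scale. Sema3c gave 1329 in the early bulge sample and 1538 in the ORS sample (-0.21). Sema3d gave 379 in the early bulge sample and 205 in the ORS sample (0.89). Sema3b had a log2 ratio of 0.23. Sema3g, known from vessels, was dim, with 59.4 in the early bulge sample and 129 in the ORS sample (2.17-fold higher in the ORS sample), and with a pseudocount in place of the floor its log2 ratio was -0.67, under 2-fold.

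Among the 13 membrane semaphorins, 10 were measured. Sema6a, a transmembrane ligand of plexins A2 and A4, gave 434 in the early bulge sample and 95.7 in the ORS sample, 4.53-fold higher in the early bulge sample. Other probe sets of Sema6a had the ORS array below the floor and gave bounds of 0.89 and 0.07. Sema4a, best known from immune cells, gave 3655 in the early bulge sample and 1684 in the ORS sample (2.17-fold), and its other probe set gave 1.23 on the log2 scale. Sema7a, a lipid-anchored ligand of Plxnc1 and of integrins, gave 178 in the early bulge sample and 431 in the ORS sample, 2.42-fold higher in the ORS sample. The mean over its probe sets, 1 of them below the floor on both arrays, was -0.64.

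Several membrane semaphorins differed by less than 2-fold with the higher signal in the early bulge sample. Sema4c gave 1275 in the early bulge sample and 661 in the ORS sample (log2 ratio 0.95), just short of 2-fold, while Sema4a at 1.12 lay just past it. Sema6c (0.79), Sema4g (0.74) and Sema5a (0.29) had the same direction. Sema4b gave 1281 in the early bulge sample and 1301 in the ORS sample. Sema4d, the ligand of Plxnb1, gave 559 in the early bulge sample and 624 in the ORS sample (-0.16), and Sema6d was dim, with 102 in the early bulge sample and 126 in the ORS sample and with probe sets of both signs (-0.31 to 0.36). Sema4f, Sema5b and Sema6b were below the floor on both arrays.

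Of the semaphorin receptors only Plxna2 was 2-fold apart on its representative probe set. Nrp2 joined it after median centring, towards ORS, and Nrp1 did with the mean over probe sets, towards early bulge. Plxna2, a receptor of class 6 semaphorins and of class 3 ligands bound to neuropilins, gave 466 in the early bulge sample and 1567 in the ORS sample, 3.36-fold higher in the ORS sample. Its 4 probe sets ran from -1.80 to -0.93 on the log2 scale. The ligand Sema6a and its receptor Plxna2 were thus higher on opposite arrays. Plxna4, its other receptor named above, was dim and had the higher signal in the early bulge sample, as Sema6a did. Plxnb1 gave 2354 in the early bulge sample and 2036 in the ORS sample (0.21), and Plxnb2 gave 1969 in the early bulge sample and 2355 in the ORS sample (-0.26). Plxna1 gave 1173 in the early bulge sample and 1109.9 in the ORS sample (0.08), and Plxna3 had a log2 ratio of 0.10. Plxna4 (0.80) and Plxnd1 (0.47) were dim, and Plxnb3 and Plxnc1 were represented by probe sets below the floor on both arrays.

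The neuropilins had opposite signs, each under 2-fold on its representative probe set. Nrp1, the co-receptor of Sema3a and of VEGF, gave 1259 in the early bulge sample and 733 in the ORS sample (log2 ratio 0.78), and its 4 probe sets ran from 0.74 to 1.55, 2 of them past 2-fold (1.15 and 1.55, the second a bound). Nrp2 gave 1388 in the early bulge sample and 2499 in the ORS sample (-0.85), and its 4 probe sets ran from -1.56 to -0.45. Every measured probe set of each neuropilin kept the sign of its gene. Sema3a and Nrp1 therefore had the same direction. Sema3f and Nrp2 had opposite ones, although the Sema3f probe sets other than the ambiguous one gave only 0.30 and 0.19.

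**Figure D4:**
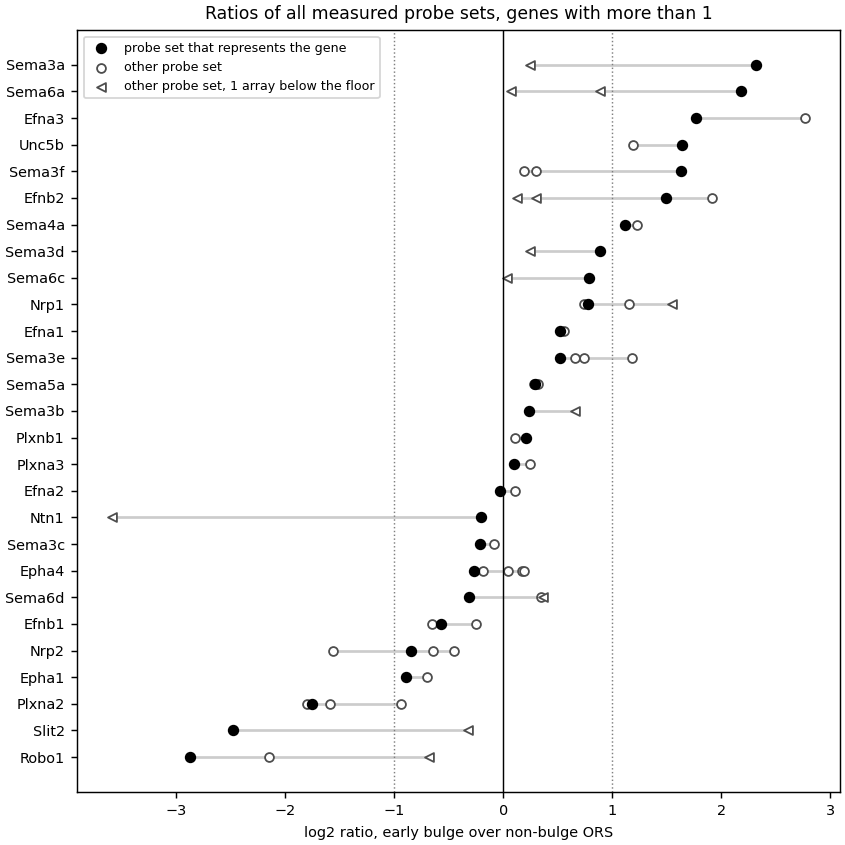
Log2 ratio of early bulge over ORS signal for each measured probe set of the 27 ligands and receptors with more than 1 (filled, the probe set that represents the gene, and open, the others, with triangles where 1 array was below the floor). All 10 genes 2-fold apart with another measured probe set keep to 1 side of 0, as do Nrp1, Nrp2 and Ntn1. Robo1, Slit2, Sema6a, Sema3a, Efnb2, Sema3f and Ntn1 spread widely, and Epha4 and Sema6d straddle 0.

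Among netrins and their receptors, Unc5b was the only gene 2-fold apart on its representative probe set, joined by Ntn4 after median centring. Unc5b, a netrin receptor with a death domain, gave 1719 in the early bulge sample and 553 in the ORS sample, 3.11-fold higher in the early bulge sample, and its other probe set gave 1.19 on the log2 scale. Ntn4, a netrin of basement membranes that binds laminin, gave 849.6 in the early bulge sample and 1660.4 in the ORS sample (log2 ratio -0.97), just short of 2-fold. Ntn1 depended on the probe set. The representative gave 67.6 in the early bulge sample and 78.0 in the ORS sample, whereas the other gave 4.23 in the early bulge sample and 694 in the ORS sample, a log2 ratio of -3.59 as a bound. Choosing the probe set after setting the floor, an alternative chosen after seeing the data, takes that second probe set and adds Ntn1 to the genes higher in the ORS sample, as do the mean over probe sets and counting probe sets. Ntn5 was dim, with 60.04 in the early bulge sample and 74.0 in the ORS sample. Unc5c gave 106 in the early bulge sample and 122 in the ORS sample. Unc5a was just above the floor in the ORS sample alone (20.3 in the early bulge sample and 61.0 in the ORS sample), and Ntn3 and Unc5d were below it on both arrays.

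Partners and effectors of these systems were mostly less than 2-fold apart. Of 64 such genes in 6 lists 62 matched a probe set and 60 were measured. Of these, 5 were at least 2-fold higher in the early bulge sample (8.33%) and 2 in the ORS sample (3.33%), near the 7.30% and 4.78% of all genes, with a median log2 ratio of 0.12. In the list of other netrin and repulsive guidance molecule (RGM) receptors and Unc5 ligands, 4 of 9 were 2-fold apart. Flrt2, a membrane ligand of Unc5 receptors, gave 1095 in the early bulge sample and 7882 in the ORS sample, 7.20-fold higher in the ORS sample, with all 3 probe sets between -3.49 and -2.71. Its paralog Flrt1 gave 899.8 in the early bulge sample and 289 in the ORS sample (3.11-fold higher in the early bulge sample, and 0.53 on its other probe set). Rgma, a ligand of neogenin, gave 558 in the early bulge sample and 203 in the ORS sample (2.76-fold). Dscam, a netrin receptor and adhesion molecule, gave 189.6 in the early bulge sample and 66.0 in the ORS sample (2.87-fold).

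The netrin receptors outside the Unc5 family differed less. Neo1, which encodes neogenin, gave 6374 in the early bulge sample and 8907 in the ORS sample (log2 ratio -0.48), and Dcc was dim (0.48). Among Eph effectors, 1 of 13 measured genes was 2-fold apart. It was Grip1, a scaffold that binds the tail of ephrin-B ligands, with 426 in the early bulge sample and 122 in the ORS sample (3.49-fold). Among semaphorin effectors, 1 of 13 was apart, Dpysl3, of the collapsin response mediator family, with 778 in the early bulge sample and 333 in the ORS sample (2.33-fold, with a lower value of 0.39 on the log2 scale on another probe set). Among other neuropilin and semaphorin partners, 1 of 8 was apart, the collagen receptor subunit Itga1, with 320.1 in the early bulge sample and 853 in the ORS sample (2.67-fold higher in the ORS sample).

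None of the 11 Slit and Robo effectors and none of the 6 measured netrin effectors was 2-fold apart. The Robo-binding GTPase activators Srgap3 (log2 ratio -0.82), Srgap1 (-0.77) and Srgap2 (-0.40) had the higher signal in the ORS sample on their representative probe sets, each by less than 2-fold. The 3 measured probe sets of Srgap2 ran from -0.40 to 0.17.

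**Figure D5:**
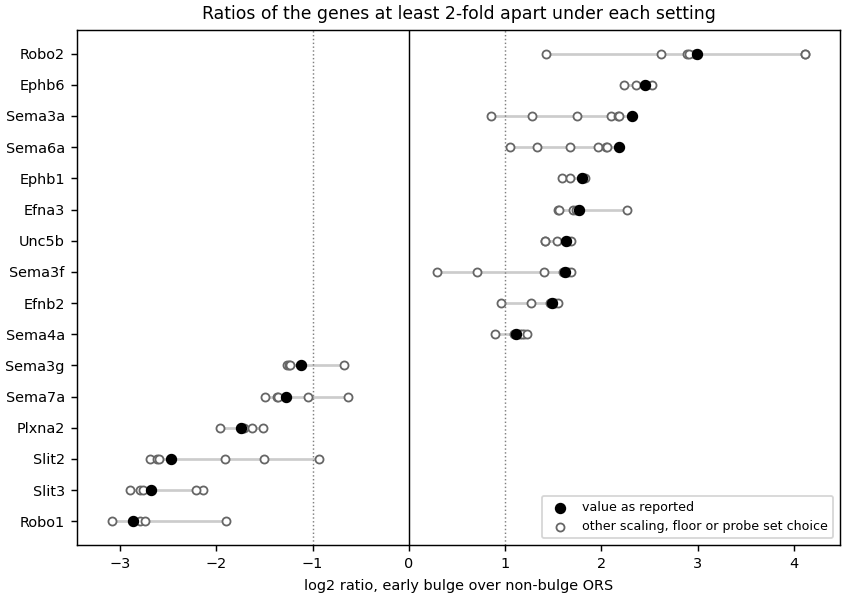
Log2 ratio of early bulge over ORS signal for the 16 guidance genes at least 2-fold apart, as reported (filled) and under other scalings, floors and probe set choices (open). Dotted lines mark 2-fold. No gene crosses 0, and 9 of the 16 stay at least 2-fold apart under every setting that gave them a value. Of these 9, Ephb1, Ephb6, Robo2 and Slit3 had 1 probe set, so the probe set choices could not change them.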

How the data were processed

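Total RNA of 2 sorted populations was hybridised to 1 Affymetrix expression array each. The deposited intensity of each probe set is a linear MAS5 signal that the authors computed with Affymetrix Expression Console, as the submitters' processing notes list. No version, detection call or genome build is given in the sources used here. Gene symbols came from the platform annotation as supplied. All 70 members were found by Entrez ID in the RefSeq gene table (GRCm38.p6) under the same symbol. Of the probe sets, 34958 had 1 gene symbol, 932 several and 9160 non-control ones none in this annotation, and only the first kind without controls was used. Members, lists and thresholds were chosen with earlier results of these data known. Both signals are given for members at least 2-fold apart, for up to 3 members with the highest mean signal in each family and side, and for members whose probe sets differ in sign or by over 1 on the log2 scale. Partner genes are named with both signals when 2-fold apart, and others with signals or ratios here were added after their values were seen. Promoter windows came from RefSeq, in which 60 of the 70 members had 1 or more. Ratios and counts were computed in Python 3.11.15 with pandas 2.3.3 and loess in statsmodels 0.14.6 (span 0.4), and the procedure was tested on simulated arrays. Other settings tried were 3 scalings (median centring, quantile and loess), a lower floor (20th percentile), a higher one (60th) and none, a pseudocount, the mean over probe sets, only probe sets with no _s, _x or _a suffix, and probe sets as the unit. Precision is limited by having 1 array per population.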

Additional observations from a re-analysis of the deposited data

How the results depend on the processing

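No paired analysis was possible because each population had 1 array. The count of members higher in the early bulge sample (10) ran from 8 to 14 over 10 of the 11 alternatives and was 17 when probe sets were counted. The count higher in the ORS sample (6) was 10 after median centring, 10 with the floor at the 20th percentile, 10 with no floor and 11 probe sets when these were counted, and ran from 5 to 7 under the others. With the floor at the 20th percentile, 16.2% of members and 11.4% of all genes were at least 2-fold higher in the early bulge sample. With no floor these shares were 20.0% and 15.0%, and at the 60th percentile 22.2% and 6.11%. Towards ORS, members and all genes gave 14.7% and 6.01% (20th percentile), 14.3% and 8.80% (no floor), and 11.1% and 4.23% (60th percentile). The mean over probe sets added Nrp1 to the early bulge side and Ntn1 to the ORS side. Median centring added Efna5, Epha1, Nrp2 and Ntn4 to the ORS side. The lower floor and no floor each added Epha3, Sema4f, Sema5b and Unc5a there, all dim. To the early bulge side, the lower floor added Slit1, and no floor added Slit1, Ntn3, Unc5d and the antisense transcript Plxna4os1. Slit1, Ntn3, Unc5d and Plxna4os1 were below 57.8 on both arrays. The median log2 ratio of the members ran from -0.02 to 0.27. That of the ligands was -0.02 without suffixed probe sets, and that of the receptors was -0.08 after median centring. The sign of these medians is thus not settled. Receptors had the higher median under quantile normalization (0.09 against 0.06), without suffixed probe sets (0.10 against -0.02) and with no floor (0.26 against 0.25). Ligands had it under the other settings, so the order of ligands and receptors is not settled either. Of 159 values of the 16 genes 2-fold apart under alternatives, 137 lay within 0.36 of the reported log2 ratio, 22 lay further off and none changed sign. Part of this was fixed in advance. Probe set choices cannot move a gene with 1 probe set, such as Ephb1 or Ephb6. A floor cannot move a gene bright on both arrays or reverse a sign. Outside 2-fold fell Efnb2 (0.96), Sema3a (0.85), Sema3f (0.71), Sema7a (-0.64) and Slit2 (-0.93) with the mean over probe sets, Sema3f without suffixed probe sets (0.30), Sema3g with a pseudocount (-0.67) and Sema4a after median centring (0.90). Robo2 ran from 1.42 to 4.12 with the floor. With the floor at the 60th percentile the log2 ratio was 1.28 for Sema3a, 1.34 for Sema6a, -1.51 for Slit2 and -2.13 for Slit3. Signals near the floor limit Sema3a, Sema3g, Sema6a, Slit2, Slit3, Robo2 and Ntn1.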
